A study of Mus musculus with 8 samples.

Results

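The 10 genes below are linked to the mesenchymal state of a cell, although Vim, Snai1 and Zeb1 were also present in undifferentiated stem cells here. Levels of all 10 were followed through Set7 knockdown and stem cell differentiation. They are the cytoskeletal gene Vim, the cadherin genes Cdh2 and Cdh11, the surface receptor gene Cd44, and the transcription factor genes Twist1, Prrx1, Snai1, Snai2, Zeb1 and Zeb2. Each was taken as the RefSeq row with the highest total count, which gave all 10 of the listed genes among the 23483 genes of the count table. The rows were NM_011701 (Vim), NM_001039150 (Cd44), NM_011427 (Snai1) and NM_015753 (Zeb2) on chromosome 2, NM_007664 (Cdh2) and NM_011546 (Zeb1) on chromosome 18, NM_009866 (Cdh11) on chromosome 8, NM_011658 (Twist1) on chromosome 12, NM_011415 (Snai2) on chromosome 16 and NM_011127 (Prrx1) on chromosome 1. The 8 libraries were poly(A)-selected RNA of C57BL/6 mouse cells at 5.5 mM glucose, 2 libraries in each of 4 groups. Knock-down cells were Sca1 cells with an shRNA construct against Set7, a lysine methyltransferase, delivered by lentivirus. NTC cells were Sca1 cells with a non-target shRNA control construct, delivered the same way, and the cells with either construct were selected with 1 µg/ml puromycin. Untreated Sca1 cells carried no construct. All Sca1 cells came from embryonic stem cells kept 4 days without LIF on gelatin, were sorted on anti-Sca1 magnetic beads to a purity above 80%, and were grown for 2 to 8 population doublings without LIF. The mESC libraries were the undifferentiated stem cells themselves, maintained with LIF. The labels give 1 target sequence for Set7, so loss of Set7 and other effects of that shRNA cannot be told apart, and they do not say whether replicates were separate cultures.

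Epithelial cells hold together through E-cadherin and keratins, whereas mesenchymal cells carry N-cadherin or cadherin-11, a vimentin cytoskeleton and the hyaluronan receptor CD44. The change between these states, epithelial-mesenchymal transition, occurs at gastrulation and when mural and connective tissue cells form. It is driven by transcription factors of the SNAIL, ZEB and TWIST families. SNAIL and ZEB proteins repress epithelial genes by binding E-boxes of the sequence CACCTG, and PRRX1 is a homeodomain factor of limb and vascular mesenchyme.

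Library totals over genes ran from 2507938 to 5080266 counts. Levels are given as CPM, counts scaled to a common library size after TMM correction, and a gene is called when its edgeR quasi-likelihood test has a Benjamini-Hochberg adjusted p under 0.05 over all 13966 genes tested. In the gene lists, rose and fell stand for called higher and called lower. Setd7, the gene of Set7, stood at 14.0 and 10.8 CPM in the knock-down and at 60.7 and 66.7 CPM in NTC cells (log2 -2.39 ± 0.20 SE, edgeR adjusted p = 1.71e-07). Untreated Sca1 cells had 76.3 and 66.3 CPM, against 11.2 and 16.5 CPM in mESC. Ly6a, the gene of the sorted protein Sca1, was at 9.81 to 12.5 CPM in the knock-down, 5.44 to 6.46 CPM in NTC, 4.42 to 13.0 CPM in untreated Sca1 cells, with mESC at 5.72 to 9.85 CPM. It was not called in the knock-down against NTC (edgeR adjusted p = 0.126) or in untreated Sca1 cells against mESC (0.671). The libraries of untreated Sca1 replicate 2 and mESC replicate 2 share the library code 56 in the labels. The row NR_046233 held 8.97% and 8.63% of their counts, against 0.289% to 1.17% elsewhere. These shares are of the total over all transcript rows, which is larger than the total over genes. Replicates differed by a chi-square statistic that, per degree of freedom, came to 2.08 in the knock-down, 1.54 in NTC, 40.3 in untreated Sca1 cells and 54.4 in mESC. That statistic was summed over genes on library totals without TMM and includes the row NR_046233. It is therefore not a measure of the spread of a typical gene. The fit instead estimated the spread of each gene over all groups, after TMM. Of the genes called between knock-down and NTC 29.7% were higher in the knock-down, and of those called between NTC and untreated Sca1 cells 77.8% were higher in NTC. Without the composition factor of TMM these shares were 18.3% and 96.5%.

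Promoter sequence was at hand in RefSeq (GRCm38.p6) for 6 of the 10 genes, and 4 windows of 250 bases upstream of the start site are shown. Vim and Snai1 were transcribed in every group, whereas Twist1 and Prrx1 were low in the knock-down and in mESC. Capitals mark TATA boxes (TATAAA), GC boxes (GGGCGG), the SNAIL and ZEB E-box (CACCTG) and the TWIST E-box (CATCTG), searched on both strands. The windows are chr2:13574061-13574310 on the plus strand, chr2:167537945-167538194 on the plus strand, chr12:33957421-33957670 on the plus strand and chr1:163313651-163313900 on the minus strand.
Vim: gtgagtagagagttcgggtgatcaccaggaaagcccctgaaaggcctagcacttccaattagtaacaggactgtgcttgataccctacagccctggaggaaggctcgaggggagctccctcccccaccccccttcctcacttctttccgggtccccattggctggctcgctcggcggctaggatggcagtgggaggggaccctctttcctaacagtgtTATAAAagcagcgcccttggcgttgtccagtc
Snai1: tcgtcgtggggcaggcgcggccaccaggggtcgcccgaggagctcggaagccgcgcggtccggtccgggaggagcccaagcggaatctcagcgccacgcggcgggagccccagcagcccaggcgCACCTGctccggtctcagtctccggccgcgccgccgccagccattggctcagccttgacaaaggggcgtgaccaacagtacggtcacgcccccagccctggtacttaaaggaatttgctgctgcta
Twist1: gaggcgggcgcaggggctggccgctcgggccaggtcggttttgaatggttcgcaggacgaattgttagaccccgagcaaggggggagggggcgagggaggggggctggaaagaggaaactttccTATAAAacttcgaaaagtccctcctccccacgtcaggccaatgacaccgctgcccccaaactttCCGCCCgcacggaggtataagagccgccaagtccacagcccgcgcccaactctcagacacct
Prrx1: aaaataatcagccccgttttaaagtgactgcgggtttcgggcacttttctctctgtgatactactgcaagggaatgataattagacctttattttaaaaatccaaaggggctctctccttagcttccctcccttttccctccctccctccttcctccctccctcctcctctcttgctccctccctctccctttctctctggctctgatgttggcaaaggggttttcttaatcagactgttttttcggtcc
The SNAIL and ZEB E-box occurred once in the Snai1 window and in none of the windows of Vim, Twist1, Prrx1, Cd44 and Zeb2, and it was present in 17.2% of all 32851 RefSeq windows of this length. CATCTG occurred in none of the 6 genes and in 14.4% of all windows. TATA boxes were present in the Vim and Twist1 windows and in 12.4% of all windows. The Prrx1 window had a GC content of 47.6% and 4 CpG dinucleotides, and the Snai1 window 70.0% and 27, against medians of 52.4% and 6 over all windows. A window without a match says only that these letters do not occur there.

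Vim, whose product vimentin forms the intermediate filaments of mesenchymal cells, was by far the most abundant of the 10 genes. It stood at 125 and 134 CPM in the knock-down, 477 and 484 CPM in NTC, 738 and 530 CPM in untreated Sca1 cells, and 567 and 466 CPM in mESC. The knock-down libraries lay below all others, and the NTC libraries fell within the range of mESC. In descending order the group means were those of untreated Sca1, mESC, NTC and knock-down cells, and only the last step was called. Per kilobase of transcript, Vim averaged 59.0 CPM in the knock-down, 219 in NTC, 289 in untreated Sca1 cells, with mESC at 236. The next highest level per kilobase in any group was 17.5, that of Cdh2 in NTC cells.

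Cdh2, N-cadherin, stood at 16.5 and 17.8 CPM in the knock-down, 87.5 and 82.3 CPM in NTC, 55.9 and 51.3 CPM in untreated Sca1 cells, and 4.81 and 9.46 CPM in mESC. No group overlapped another, and every step of that order (NTC, untreated Sca1, knock-down, mESC) was called. Cdh11, cadherin-11, a type II cadherin of mesenchyme, stood at 2.10 and 3.30 CPM in the knock-down, 59.6 and 50.6 CPM in NTC, 38.6 and 38.4 CPM in untreated Sca1 cells, and 2.06 and 0.220 CPM in mESC. Its order was the same, but neither NTC against untreated Sca1 cells nor knock-down against mESC was called. Cd44, the hyaluronan receptor, stood at 10.5 and 8.35 CPM in the knock-down, 50.3 and 44.4 CPM in NTC, 43.6 and 41.5 CPM in untreated Sca1 cells, and 3.43 and 9.02 CPM in mESC. Again the same 2 steps were not called, and the knock-down libraries overlapped those of mESC. All 6 RefSeq rows of Cd44 held identical counts, so its isoforms cannot be told apart here.

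Among the factors that mark established mesenchyme, Twist1, a basic helix-loop-helix factor, stood at 1.75 and 2.64 CPM in the knock-down, 16.5 and 15.6 CPM in NTC, 21.6 and 17.7 CPM in untreated Sca1 cells, and 1.37 and 0.660 CPM in mESC. Prrx1 had 1 and 0 counts in the knock-down, 46 and 57 counts in NTC, 73 and 27 counts in untreated Sca1 cells, and no count in either mESC library. Both genes were thus low in the knock-down and in mESC, and high in the other 2 groups. NTC and untreated Sca1 cells did not differ by a call in either gene. The knock-down and mESC were not separated by a call in Twist1, and in Prrx1 both lay under the floor of 3 counts per group. The row used for Prrx1 had the same counts as another of its 3 rows.

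The zinc-finger repressors of the SNAIL family differed in level. Snai1 stood at 13.3 and 15.0 CPM in the knock-down, 21.7 and 20.1 CPM in NTC, 29.1 and 19.4 CPM in untreated Sca1 cells, and 16.5 and 15.4 CPM in mESC. Its whole range was narrow, and no neighbouring groups in the order untreated Sca1, NTC, mESC and knock-down differed by a call. Snai2, Slug, had 1 and 2 counts in the knock-down, 17 and 27 in NTC, 24 and 13 in untreated Sca1 cells, and 0 and 7 in mESC. It was therefore near the limit of detection in the knock-down and in mESC, and the mESC libraries themselves disagreed.

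The ZEB repressors, zinc-finger homeodomain proteins, differed in mESC. Zeb1 stood at 8.41 and 8.57 CPM in the knock-down, 22.5 and 21.0 CPM in NTC, 24.4 and 15.5 CPM in untreated Sca1 cells, and 21.1 and 31.9 CPM in mESC. Its mean was highest in mESC, and only the step down to the knock-down was called. Zeb2 stood at 2.45 and 3.08 CPM in the knock-down, 11.8 and 16.1 CPM in NTC, 19.2 and 19.4 CPM in untreated Sca1 cells, and 1.15 and 2.64 CPM in mESC. Only the step between NTC and the knock-down was called in its order, and the knock-down and mESC libraries overlapped. Zeb1 overlaps the non-coding gene Gm10125, which had 112 counts in all, and Zeb2 the microRNA gene Mir5129, which had 2. The strand of the libraries is not given in the sources used here, so reads of overlapping genes cannot be told apart.

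**Figure D1:**
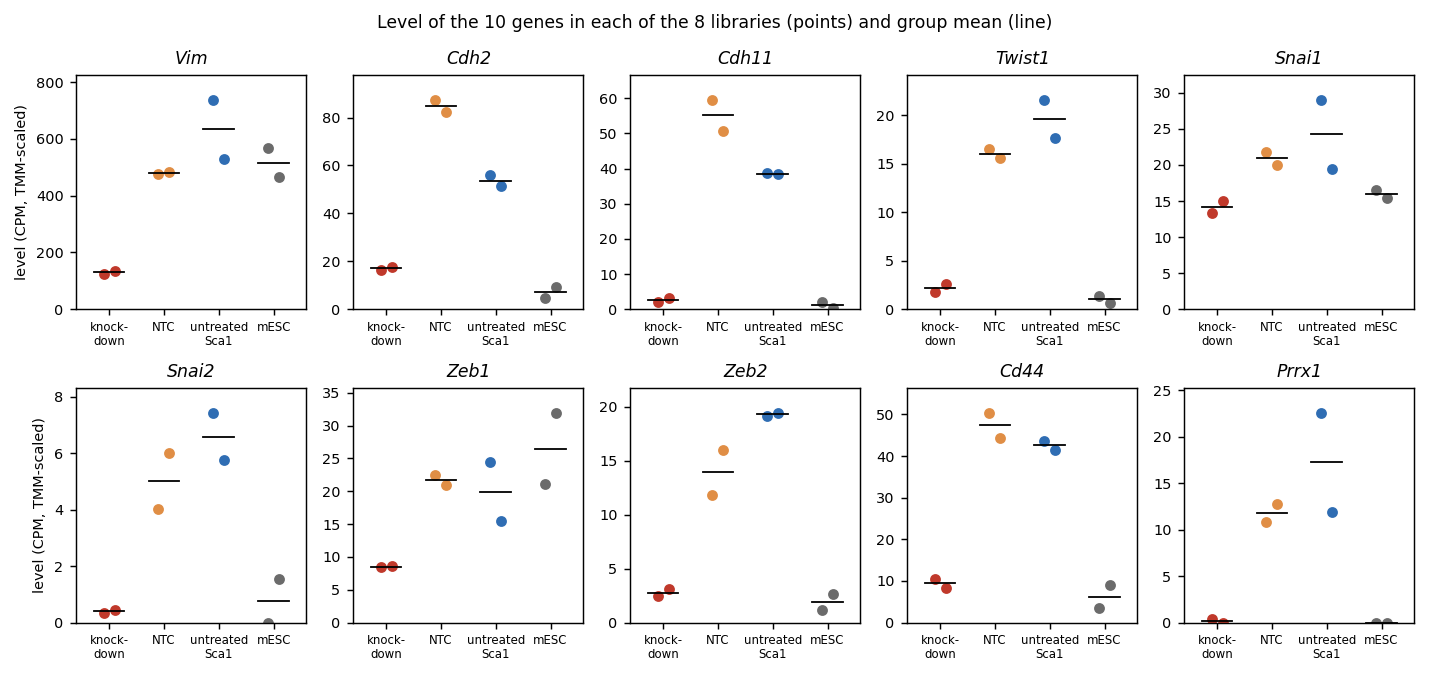
Level of each gene in CPM after TMM scaling (y axis from 0, a separate scale for each gene) in the 2 libraries of each group (points) and the group mean (line). Vim, Snai1 and Zeb1 were present in mESC, and the other 7 genes averaged at most 7.14 CPM there.

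Set7 knock-down was read against the non-target construct in Sca1 cells. All but Snai1 were called lower. Prrx1 had 1 count left, Cdh11 fell 19.3-fold, Snai2 and Zeb1 also fell, and Vim, the cadherin Cdh2, the receptor Cd44 and the factors Twist1 and Zeb2 fell by 3.70-fold to 6.96-fold. Of the 10 genes 9 were called lower and none higher, in a comparison in which 14.3% of tested genes were called, 10.1% lower and 4.25% higher. All 10 had both knock-down libraries below both NTC libraries, as did 32.9% of tested genes, while 31.1% had both above. All 10 passed the low-count filter, and the median log2 fold change was -2.32, against -0.000175 over all tested genes. In bulk RNA, fewer mesenchymal cells and less RNA per cell cannot be told apart.

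By size, Cdh11 fell by 4.27 ± 0.31 on the log2 scale (SE, n = 2 per group; edgeR adjusted p = 2.57e-08), and Cdh2 fell by 2.30 ± 0.20 (1.71e-07). Vim fell by 1.89 ± 0.15 (edgeR adjusted p = 6.72e-08) and Cd44 fell by 2.35 ± 0.26 (5.33e-06). Among the factors Twist1 fell by 2.80 ± 0.34 (edgeR adjusted p = 1.30e-05), Zeb2 fell by 2.29 ± 0.35 (0.000178) and Zeb1 fell by 1.35 ± 0.27 (0.00227). Snai2 had 3 counts in the knock-down and 44 in NTC cells, a 12.5-fold lower rate with an exact 95% counting interval of 3.99 to 62.7 (edgeR adjusted p = 0.00430). Prrx1 had 1 count against 103, an 87.5-fold lower rate with an interval of 15.4 to 3489 (edgeR adjusted p = 1.20e-05). These intervals cover counting error only. Snai1 stood at 14.1 ± 1.16 CPM in the knock-down and 20.9 ± 1.19 CPM in NTC cells (SD, n = 2 each; log2 -0.55 ± 0.22, edgeR adjusted p = 0.116).

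Both knock-down libraries lay below both NTC libraries in all 10 genes, so the direction within each library code was already given. Only the sizes of the differences are added here. Within code 12 the differences in log2 CPM ran from -0.69 (Snai1) to -4.52 (Cdh11), and within code 34 from -0.41 (Snai1) to -4.66 (Prrx1). The call of Snai2 was lost without knock-down replicate 1 (edgeR adjusted p = 0.0602), knock-down replicate 2 (0.111) or NTC replicate 2 (0.0607), and that of Zeb1 was lost without knock-down replicate 2 (0.0649). Leaving out a knock-down library gave a fitted log2 value of Prrx1 of -8.55 (replicate 1) or -4.95 (replicate 2), in place of -6.14. Snai1 was called in a fit of the compared groups only (edgeR adjusted p = 0.0186) and without both code 56 libraries (0.0178).

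Summed fibroblast and smooth muscle markers were also lower in the knock-down than in NTC cells. In that comparison 10.1% of tested genes were called lower and 4.25% higher. The summed level of 9 fibroblast markers was 96.5 to 106 CPM in the knock-down, 1930 to 2010 CPM in NTC, 809 to 893 CPM in untreated Sca1 cells, with mESC at 35.2 to 39.8 CPM, and 7 of the 9 were called lower in the knock-down than in NTC cells. Postn was at 0 in the knock-down, and Postn, Dcn and Lum were at 0 in mESC. The 8 smooth muscle markers summed to 239 to 252 CPM in the knock-down, 789 to 817 CPM in NTC, 835 to 1240 CPM in untreated Sca1 cells, with mESC at 62.3 to 65.0 CPM, and 6 of the 8 were called lower in the knock-down than in NTC cells. The 10 pluripotency markers summed to 3140 to 3350 CPM in the knock-down, 2440 to 2530 CPM in NTC, 2340 to 2670 CPM in untreated Sca1 cells, with mESC at 3720 to 4100 CPM. Of these 10, 2 were called higher in the knock-down than in NTC cells and none lower. Of the other marker lists, blood and macrophage genes summed to 3.15 CPM at most in any library. Neural genes summed to 116 to 123 CPM in the knock-down, 253 to 286 CPM in NTC, 246 to 257 CPM in untreated Sca1 cells, with mESC at 105 to 123 CPM, and neural crest genes to 110 to 115, 130 to 137, 89.7 to 98.3 and 100 to 107 CPM in the same order of groups. Endothelial genes summed to 101 to 116 CPM in the knock-down, 94.1 to 100 CPM in NTC, 51.2 to 53.5 CPM in untreated Sca1 cells, with mESC at 169 to 186 CPM, and primitive and parietal endoderm genes to 2580 to 2590, 3510 to 3570, 2350 to 2450 and 4820 to 5040 CPM in that order. In knock-down against NTC, 2 of the 8 neural genes were called lower (Nes and Ncam1) and 1 higher (Tubb3). Of the 11 endoderm genes 3 were called lower and 1 higher (Amn), and of the 5 neural crest genes 1 was called lower. None of the 6 endothelial genes was called. The part of these cell types in the results was not tested.

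**Figure D2:**
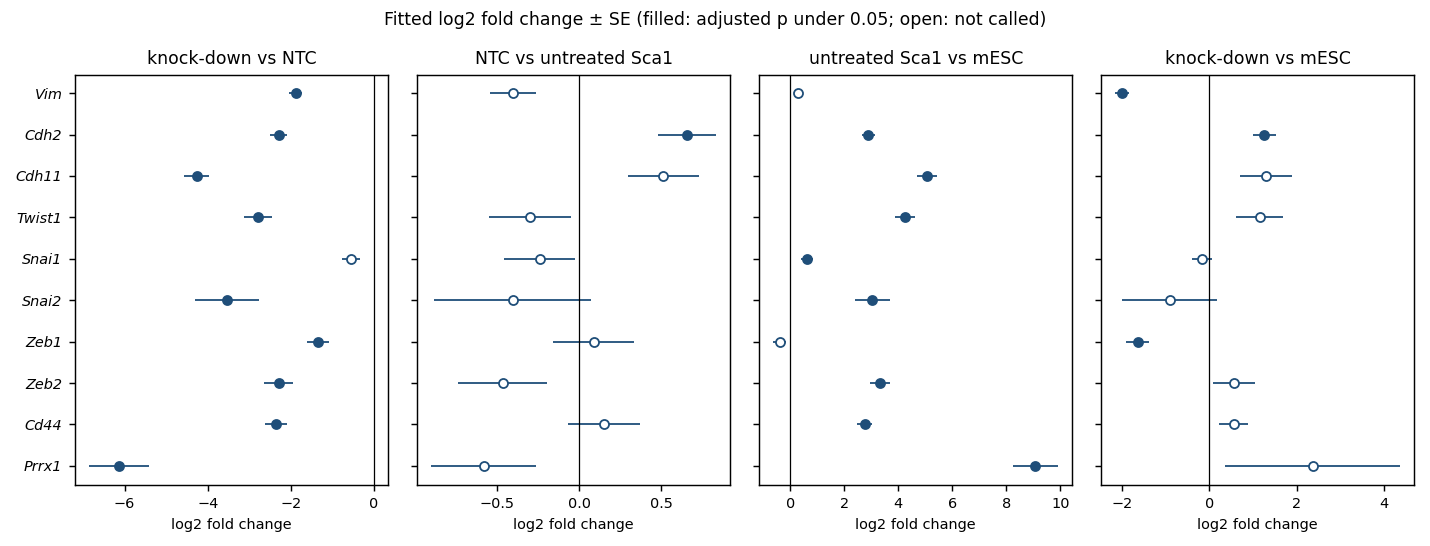
Fitted log2 fold change with its SE for each gene in 4 comparisons, each panel with its own x axis. Filled points are calls. In knock-down against NTC every point lies left of 0, and in knock-down against mESC the calls are Vim and Zeb1 (lower) and Cdh2 (higher). The fitted value of Prrx1 depends on the prior count because a group has 0 or 1 counts.

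Untreated Sca1 cells were set against the mESC they were made from. The cadherins, Cd44 and the factors Twist1, Snai2, Zeb2 and Prrx1 were gained from low or absent levels, whereas Vim and Zeb1 were already present in mESC and were not called. Of the 10 genes 8 were called higher and none lower, where 35.5% of tested genes were called, 18.7% higher and 16.8% lower. Of the marker lists, 8 of 9 fibroblast and 8 of 8 smooth muscle markers were called higher there, and 7 of 10 pluripotency and 8 of 11 primitive and parietal endoderm markers were called lower. The pluripotency genes Pou5f1, Nanog and Utf1 were not called there (edgeR adjusted p of 0.54, 0.763 and 0.232). In 8 of the 10 followed genes both untreated Sca1 libraries lay above both mESC libraries, as they did for 31.2% of tested genes, and 31.5% had both below. The median log2 fold change was 2.97, also with Prrx1 at its bound, against -0.00699 over all tested genes.

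Prrx1 had 100 counts in untreated Sca1 cells and 0 in mESC and was at least 54.0-fold higher, with 3 counts over the mESC group as the floor. Cdh11 rose by 5.06 ± 0.37 on the log2 scale (SE, n = 2 per group; edgeR adjusted p = 1.42e-08) and Twist1 rose by 4.25 ± 0.38 (1.40e-07). Smaller rises were those of Zeb2 (3.32 ± 0.36, edgeR adjusted p = 1.45e-06), Snai2 (3.04 ± 0.65, 0.00142), Cdh2 (2.90 ± 0.23, 3.21e-08) and Cd44 (2.76 ± 0.28, 6.73e-07). Snai1 rose by 0.63 ± 0.22 (edgeR adjusted p = 0.0347). The log2 value of Vim was 0.30 ± 0.14 (edgeR adjusted p = 0.114) and that of Zeb1 -0.38 ± 0.24 (0.241).

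Library choice mattered most for the genes with few counts in mESC. The log2 value of Cdh11 was 7.25 without mESC replicate 1 and 4.2 without mESC replicate 2, and that of Snai2 was 2.10 and 7.64. Without mESC replicate 1 Twist1 stood at 4.85, and without mESC replicate 2 Zeb2 stood at 4.04 and Cd44 at 3.62. Snai1 kept its call in 9 of 18 alternatives, with adjusted p up to 0.446 (edgeR, without untreated Sca1 replicate 1). Within code 34 all 10 genes were higher in untreated Sca1 cells. Within code 56 there were 9, and the difference of Zeb1 in log2 CPM was -1.02, against 0.21 in code 34. Without mESC replicate 1 the fall of Zeb1 was called (log2 -0.64, edgeR adjusted p = 0.0343), and Vim was called higher without untreated Sca1 replicate 2 (0.0129) or mESC replicate 1 (0.0261), without both code 56 libraries (0.000391) and with the library number as block (0.00836).

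**Figure D3:**
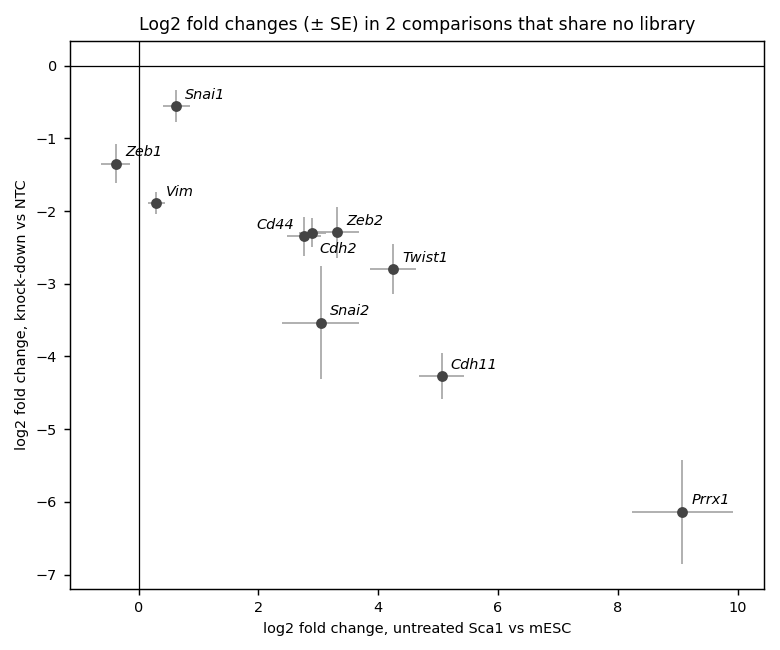
Log2 fold change of each gene in untreated Sca1 cells against mESC (x axis) and in knock-down against NTC cells (y axis), with SE bars. The comparisons share no library, but were fitted together over all 8 libraries, so their SE are not independent. Vim and Zeb1 lie near 0 on the x axis and at -1.89 and -1.35 on the y axis, and the other genes rose in the first comparison. The fitted values of Prrx1 depend on the prior count.

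NTC cells were compared with untreated Sca1 cells to see what went with carrying a construct. Cdh2 was the one gene called, with 84.9 ± 3.68 CPM in NTC and 53.6 ± 3.31 CPM in untreated Sca1 cells (SD, n = 2 each; log2 0.66 ± 0.18 SE, edgeR adjusted p = 0.0395), where 4.99% of tested genes were called, 3.88% higher and 1.11% lower. Vim, Twist1 and Zeb2 had both NTC libraries below both untreated Sca1 libraries, Cdh2, Cdh11 and Cd44 had both above, and the libraries of the other 4 genes overlapped, while over all tested genes the shares were 24% below and 29.4% above. Cdh2 kept its call in 10 of 18 alternatives, and lost it on leaving out any knock-down, NTC or untreated Sca1 library (edgeR adjusted p of 0.0934 to 0.328) and with DESeq2 (0.145) or the sum of all rows (0.0667). Vim, at -0.40 ± 0.14 in log2 (edgeR adjusted p = 0.112), was called lower without the library of untreated Sca1 replicate 2 (0.0309), mESC replicate 1 (0.0426) or mESC replicate 2 (0.0423), without both code 56 libraries (1.11e-08) and with the library number as block (0.00177). Cdh11, at 0.51 ± 0.22 (0.19), was called higher without mESC replicate 1 (0.0385) or replicate 2 (0.0403) or both code 56 libraries (0.0280), and Prrx1 was called lower in the last of these (0.00390). Only code 34 holds libraries of both groups, and there 3 genes were higher and 7 lower in NTC cells, between -0.80 (Prrx1) and 0.55 (Cdh2).

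With untreated Sca1 cells as the control in place of NTC, the knock-down was lower in all 10 genes by a call, where 17.2% of tested genes were called, 9.89% lower and 7.34% higher. All 10 also had both libraries below, as did 29.4% of tested genes, while 29.7% had both above. The median log2 fold change was -2.52, and Snai1 fell by 0.79 ± 0.23 (SE, n = 2 per group; edgeR adjusted p = 0.0250). The knock-down libraries are the same in this comparison and in that with NTC. The call of Snai1 was lost without knock-down replicate 1 (edgeR adjusted p = 0.162), knock-down replicate 2 (0.128) or untreated Sca1 replicate 1 (0.301), and with library totals only (0.0791) or DESeq2 (0.162), and that of Zeb1 in the same 3 leave-outs (0.0552, 0.0833 and 0.127). The call of Snai2 was lost without knock-down replicate 2 (0.0605).

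The knock-down was then set against mESC, the cells in which most of these genes were low. Vim and Zeb1 were lower in the knock-down than in mESC, and Cdh2 was higher. Vim averaged 130 ± 6.25 CPM in the knock-down and 517 ± 71.3 CPM in mESC (SD, n = 2 each), a fall of 1.99 ± 0.15 on the log2 scale (edgeR adjusted p = 4.78e-08). Zeb1 averaged 8.49 ± 0.118 CPM in the knock-down and 26.5 ± 7.67 CPM in mESC, and fell by 1.64 ± 0.27 (edgeR adjusted p = 0.000181). Cdh2 averaged 17.1 ± 0.950 CPM in the knock-down and 7.14 ± 3.29 CPM in mESC, and rose by 1.26 ± 0.26 (edgeR adjusted p = 0.00135). These 3 calls held in all 18 alternatives, and 25.9% of tested genes were called, 12.4% lower and 13.5% higher. The libraries were all above in 3 genes and all below in 3, against 30.4% and 30.2% of tested genes. The other 7 genes were not called, with adjusted p of 0.116 (Cdh11) to 0.658 (Snai1), although Cdh11 was called higher without mESC replicate 1 (0.00553) and Cd44 without mESC replicate 2 (0.00824).

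In NTC cells against mESC, 7 genes were called higher and none lower, where 35.1% of tested genes were called, 19.6% higher and 15.5% lower. Both NTC libraries lay above in 8 genes, as in 35% of tested genes, and below in none, against 32.9%. The 3 not called were Vim (log2 -0.11 ± 0.14, edgeR adjusted p = 0.595), Snai1 (0.39 ± 0.21, 0.170) and Zeb1 (-0.29 ± 0.23, 0.341). This comparison shares its mESC libraries with that of untreated Sca1 cells. Without mESC replicate 1 the log2 value of Cdh11 was 7.76 in place of 5.57, that of Twist1 4.54 in place of 3.95 and that of Snai2 1.69 in place of 2.63. Without mESC replicate 2 the values were 4.72 for Cdh11, 7.23 for Snai2, 3.57 for Zeb2 in place of 2.85 and 3.77 for Cd44 in place of 2.91. The call of Snai2 was lost without NTC replicate 2 (0.0581), Zeb1 was called lower without mESC replicate 1 (0.0493), and Vim was called lower without both code 56 libraries (0.0104).

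The partner factors were next. Of 19 listed partner and antagonist genes of the transition factors 17 were tested, and 9 fell and none rose in the knock-down against NTC (median log2 -0.48), where 10.1% of all tested genes were called lower. Prrx2, the paralogue of Prrx1, averaged 0.57 ± 0.184 CPM in the knock-down and 10.3 ± 0.428 CPM in NTC cells (SD, n = 2 each) and fell by 4.17 ± 0.52 on the log2 scale (SE; edgeR adjusted p = 1.97e-05). Twist2, the paralogue of Twist1, fell by 3.56 ± 0.54 (edgeR adjusted p = 0.000157). The helix-loop-helix inhibitors Id2 and Id3 fell by 1.99 ± 0.21 and 0.96 ± 0.16. For untreated Sca1 cells against mESC, 11 of the 17 rose (18.7% of all tested genes did), such as Id2 (3.6 ± 0.25), Id3 (1.76 ± 0.17) and the forkhead gene Foxc1 (means of 8.52 CPM in untreated Sca1 cells, against 0.110 CPM in mESC), while Foxq1 and Klf8 fell by 1.62 ± 0.24 and 0.95 ± 0.21.

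Of 24 listed epithelial genes, all tested, 3 rose and 2 fell in the knock-down against NTC, where 14.3% of all tested genes were called, and the median log2 value was 0.05. DESeq2 called 1 higher and 1 lower, and without the code 56 libraries 6 were called higher and 7 lower. Those that rose were the grainyhead factor gene Grhl2 (1.19 ± 0.16 in log2, SE, n = 2 per group; edgeR adjusted p = 3.41e-05), the epithelial GTPase gene Rab25 (1.09 ± 0.30) and the claudin gene Cldn4 (0.42 ± 0.13). Those that fell were the keratin gene Krt19 (by 1.16 ± 0.16) and the desmoplakin gene Dsp (by 0.49 ± 0.13). The calls of Rab25, Cldn4 and Dsp held in 14, 11 and 12 of 18 alternatives. Cdh1, E-cadherin and the textbook target of SNAIL and ZEB repression, averaged 568 ± 11.1 CPM in the knock-down, 635 ± 31.6 CPM in NTC, 486 ± 161 CPM in untreated Sca1 cells and, at the mESC stage, 668 ± 49.4 CPM (SD, n = 2 each). Its log2 value in knock-down against NTC was -0.16 ± 0.16 (edgeR adjusted p = 0.593). For untreated Sca1 cells against mESC, 15 of the 24 rose (18.7% of all tested genes did), by 4.21 ± 0.17 for Krt18, 4.41 ± 0.21 for Krt19 and 3.04 ± 0.17 for the claudin gene Cldn6. Cdh1 and the protease inhibitor genes Spint1 and Spint2 fell there by 0.46 ± 0.17, 0.57 ± 0.15 and 0.35 ± 0.12, with calls that held in 8, 17 and 9 of 18 alternatives.

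Among 20 other cadherin genes 9 were tested, of which 3 fell and none rose in the knock-down (median log2 -0.38), where 10.1% of all tested genes were called lower. DESeq2 called 1 of them lower, and 1 to 3 were called with single libraries left out. The placental cadherin gene Cdh3 fell by 1.47 ± 0.14, Cdh6 fell by 1.15 ± 0.28 and the GPI-anchored Cdh13 fell by 2.33 ± 0.55 on the log2 scale (SE, n = 2 per group, edgeR). The calls of Cdh6 and Cdh13 each held in 14 of 18 alternatives. Cdh3 averaged 49.8 ± 2.04 CPM in the knock-down, 139 ± 0.26 CPM in NTC, 62.9 ± 10.3 CPM in untreated Sca1 cells and, at the mESC stage, 38.9 ± 5.42 CPM (SD, n = 2 each). Like Cdh2 it was called higher in NTC than in untreated Sca1 cells (1.15 ± 0.15), as was Cdh24 (1.04 ± 0.27, held in 9 of 18 alternatives). For untreated Sca1 cells against mESC, Cdh3 (0.68 ± 0.16), Cdh6 (1.79 ± 0.31), Cdh10 (means of 2.78 and 0.220 CPM) and Cdh13 (1.47 ± 0.55, held in 8 of 18) rose, and Cdh4 fell by 2.74 ± 0.26 along with Cdh1.

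The catenins and anchors are the cytoplasmic partners of cadherins. Of 11 tested, 2 were called in the knock-down, where 14.3% of all tested genes were, and either call was lost in some leave-outs of a single library. The catenin-like gene Ctnnal1 rose by 0.55 ± 0.12 and the vinculin gene Vcl fell by 0.51 ± 0.14 in the knock-down (log2, SE, edgeR), with calls that held in 15 and 14 of 18 alternatives. Ctnnb1, beta-catenin, had a log2 value of -0.03 ± 0.15 (edgeR adjusted p = 0.937), and the alpha-catenin gene Ctnna2 one of -1.36 ± 0.59 (edgeR adjusted p = 0.145). For untreated Sca1 cells against mESC, Vcl (0.49 ± 0.14) and the afadin gene Afdn (0.34 ± 0.12, held in 9 of 18) rose, and Ctnnal1 and Pkp4 fell by 0.56 ± 0.12 and 0.64 ± 0.13. Of all tested genes 35.5% were called there, 18.7% higher and 16.8% lower.

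Of 9 tested intermediate filament and partner genes besides Vim, the nestin gene Nes and the desmin gene Des fell in the knock-down against NTC. The falls were 2.20 ± 0.15 and 1.38 ± 0.22 on the log2 scale (SE, n = 2 per group, edgeR). None rose (median -0.46), where 10.1% of all tested genes were called lower and 4.25% higher. Nes averaged 39.2 ± 5.03 CPM in the knock-down, 178 ± 21.2 CPM in NTC, 168 ± 12.5 CPM in untreated Sca1 cells and, at the mESC stage, 9.23 ± 1.84 CPM (SD, n = 2 each). Unlike Vim it was low in mESC. For untreated Sca1 cells against mESC, 6 of the 9 rose (18.7% of all tested genes did), with Nes at 4.19 ± 0.18. The 6 include the keratin genes Krt8 (2.44 ± 0.17) and Krt18, which are counted among the epithelial genes too, while the lamin gene Lmna fell by 0.76 ± 0.18. Between NTC and untreated Sca1 cells Des fell by 0.93 ± 0.19 and the plectin gene Plec rose by 0.65 ± 0.17.

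Of 13 tested genes around CD44 and hyaluronan, 6 fell in the knock-down and none rose (median log2 -0.21), where 10.1% of all tested genes were called lower. DESeq2 called 1 of them lower, scaling by library totals left 4, and 1 to 2 were called with any single knock-down or NTC library left out. The hyaluronan-binding proteoglycan gene Vcan fell by 2.10 ± 0.17, the hyaluronidase gene Hyal2 fell by 0.56 ± 0.14, Cemip fell by 0.67 ± 0.19 and the membrane linker gene Msn fell by 0.38 ± 0.11 (log2, SE, edgeR). The hyaluronan synthase gene Has2 fell by 0.87 ± 0.26 and the hyaluronidase gene Hyal1 by 0.69 ± 0.21. The calls of Hyal2, Cemip, Msn, Has2 and Hyal1 held in 12, 14, 12, 12 and 12 of 18 alternatives. For untreated Sca1 cells against mESC, Has2 (means of 23.0 and 0.225 CPM), Msn (0.52 ± 0.11) and Vcan (0.75 ± 0.17) rose. There the osteopontin gene Spp1 fell by 1.84 ± 0.12, Cemip by 1.16 ± 0.19, Cemip2 by 0.67 ± 0.13, Hmmr by 0.55 ± 0.13 and Hyal1 by 0.59 ± 0.22. Vcan was the one gene of that list called between NTC and untreated Sca1 cells, where 4.99% of all tested genes were called. It was higher in NTC by 0.86 ± 0.16.

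**Figure D4:**
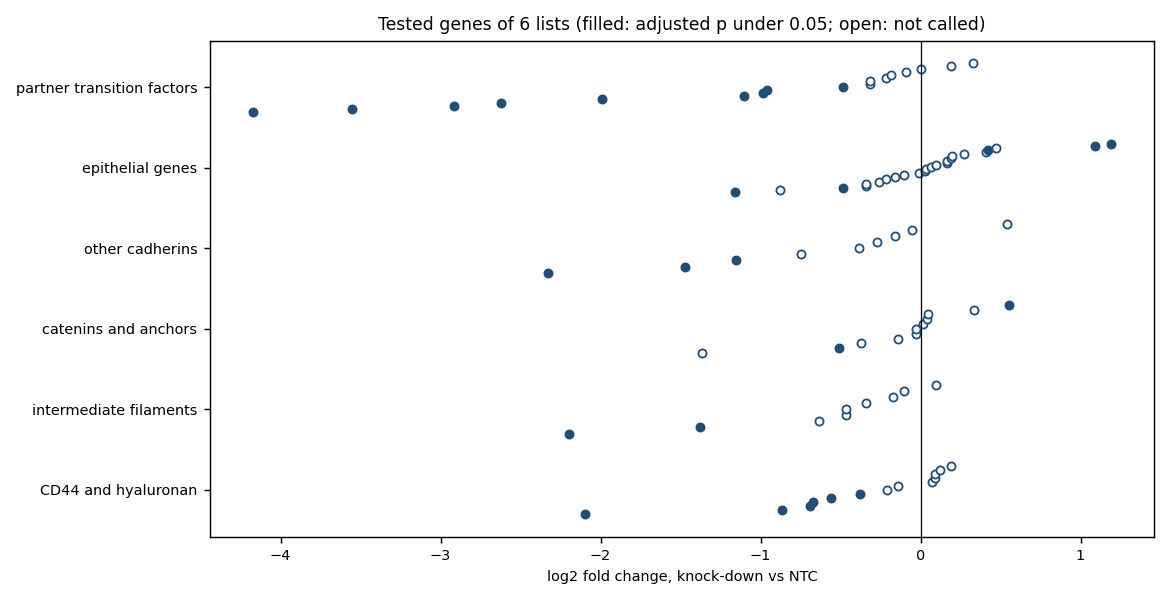
Log2 fold change in knock-down against NTC cells of every tested gene in the 6 lists, 1 row of points per list, sorted by value, with filled points for calls. Calls in the partner factor, other cadherin, intermediate filament and CD44 lists all lie left of 0, and the epithelial list has 3 calls right of 0 and 2 left.

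Over the 8 libraries the 10 genes fell into patterns that can be described by correlation of log2 CPM, with groups as the main source of spread. Cdh11 with Twist1 (Pearson r = 0.99) and Cdh2 with Cd44 (0.98) were the closest pairs, and Zeb1 with Cdh2 (0.10) the least alike. Vim was closest to Zeb1 (0.88). With Setd7 itself r was 0.99 for Prrx1, 0.97 for Zeb2, 0.96 for Snai2 and Cd44, and 0.62 for Vim and 0.42 for Zeb1. Setd7 too was low in the knock-down and in mESC, so these r follow the group levels. In knock-down replicate 2 and both mESC libraries Prrx1 had 0 counts, and its log2 CPM there is set by the prior count. Likeness to other genes was read among 9977 with a mean of at least 10 CPM and a full symbol. Unnamed genes and those with Gm-number, Rik or LOC names were left out. Those most like Vim over the 8 libraries were Epas1 (0.99) and Fis1 (0.99). Those most like Cdh2 were Hmcn1 and Dchs1 (1.00 and 0.99), and those most like Cdh11 were Axl and Smo (both 0.99). Efna5 and Col4a5 were most like Cd44 (1.00 and 0.99), Zbtb5 and Egln1 most like Snai1 (0.97 and 0.96), and Ncam1 and Mier3 most like Zeb1 (0.97 and 0.96). Epas1, a hypoxia-inducible factor gene, averaged 17.7 ± 2.29 CPM in the knock-down, 68 ± 2.86 CPM in NTC, 76.4 ± 14.3 CPM in untreated Sca1 cells and, at the mESC stage, 68.5 ± 3 CPM (SD, n = 2 each). Ncam1, a neural adhesion gene, averaged 9.41 ± 0.562 CPM in the knock-down, 38.3 ± 1.66 CPM in NTC, 30.2 ± 2.73 CPM in untreated Sca1 cells and, at the mESC stage, 46.9 ± 15.2 CPM.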

How the data were processed

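RNA of 8 libraries, selected for poly(A), was read on a Genome Analyzer IIx, per the labels' protocols. The deposited table gives whole-number counts for 29614 RefSeq transcripts, and its values show no scaling by the authors. Per the submitters' processing notes, the tools were edgeR 0.19, BWA 0.5.9 and SAMtools 0.1.17, with no role stated. Build, annotation release, counting program and strand were not given in the sources used here. Gene names came from RefSeq for 28985 rows and from GENCODE for 173, and 456 stayed unnamed. A gene was represented by its row with the highest total, and gene totals ran from 2507938 to 5080266 counts.

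Low counts were removed by filterByExpr in edgeR 4.0.16 (R 4.3.3), libraries were TMM-scaled, and 4 group means were fitted to the 8 libraries, leaving 4 residual degrees of freedom. Contrasts used the robust quasi-likelihood F test, with Benjamini-Hochberg adjustment over all 13966 genes and calls at 0.05. An SE is the size of the log2 value divided by the root of F. Log2 CPM used a prior count of 2. The scripts had first been tested on simulated counts. With no separate cultures named in the labels, p-values describe the spread among these libraries, which may be technical. Alternatives were other scalings, DESeq2 1.42.0, other filters, other rows, blocks and library sets.

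The 10 genes and the lists were chosen with earlier results of these data known. Besides the 10 genes and Setd7, each list gave up to 4 genes called in knock-down against NTC and up to 3 called in untreated Sca1 cells against mESC, by smallest p, plus every gene of a list where 5 or fewer were called in a direction. Likeness took 2 genes for each of the 10 with a mean of at least 10 CPM. Ctnnb1 was chosen after its values were seen, and Ctnna2, Epcam, Cdh24 and Plec are also given outside the rule for the lists. Lengths behind CPM per kilobase came from GENCODE vM21.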

Additional observations from a re-analysis of the deposited data

How the results depend on the processing

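The 10 genes were followed in 6 comparisons under 18 alternatives, which gave 1076 values. Of these 1024 kept their side of the threshold, and none of the called values of the 10 genes changed sign. The 1024 include uncalled values that did change sign. In NTC against untreated Sca1 cells, for example, the log2 value of Zeb1 ran from -0.18 to 0.49. In knock-down against NTC 7 to 10 genes were called lower in the alternatives, against 9. In NTC against untreated Sca1 cells the count called higher, 1, was 0 with DESeq2 and with the sum of all rows per gene, 2 without both libraries of code 56, and 0 to 2 in single leave-outs. The count called lower, 0, was 1 with the library number as replicate block, 2 without the code 56 libraries and 0 to 1 in leave-outs. In untreated Sca1 cells against mESC the count called lower, 0, was 0 to 1 in leave-outs. In NTC against mESC it was 0 to 1 in leave-outs and 1 without the code 56 libraries. In knock-down against mESC the count called higher, 1, was 1 to 2 in leave-outs and 2 without the code 56 libraries. The epithelial gene Epcam, not called in NTC against untreated Sca1 cells at a log2 value of -0.07, stood at 0.30 without the code 56 libraries (edgeR adjusted p = 0.0264). The cause was not tested.

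Over all genes, knock-down against NTC had 1998 calls, 1110 with DESeq2, 4416 in a fit of the compared groups only, 4462 without the code 56 libraries and 648 to 2826 in leave-outs. NTC against untreated Sca1 cells had 697 calls, 413 with DESeq2, 1148 with no low-count filter, 1261 with the library number as replicate block, 2386 without the code 56 libraries and 57 to 1517 in leave-outs. Untreated Sca1 cells against mESC had 4964 calls and 3293 with DESeq2. Scaling by library totals moved the median log2 value of all genes to 0.104 in NTC against untreated Sca1 cells and 0.118 in NTC against mESC. The alternative without the code 56 libraries was chosen after seeing the data.

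The replicate numbers are not known to mark a shared origin. Differences between replicates correlated at 0.18 for knock-down with NTC and 0.33 for untreated Sca1 cells with mESC, and at -0.0668 to -0.0131 for the other pairs of groups. Knock-down and NTC both have replicates of library codes 12 and 34, and untreated Sca1 cells and mESC both have codes 34 and 56. With the title number as replicate block, knock-down against NTC had 2137 calls over all genes and 9 of the 10 genes called lower. With the library number as block, which follows the library codes, that comparison had 2826 calls over all genes. Counts of 0 to 7 for Snai2 and Prrx1 in the knock-down and in mESC limit what can be said of their levels there.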
